A study of Rattus norvegicus with 4 samples.

Results

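The 4 microRNAs (miRNAs) described here, rno-miR-322, rno-miR-503, rno-miR-542-3p and rno-miR-542-5p, come from 3 hairpins of an X-chromosome cluster of the rat. They were named in a list, and each of the 4 has a probe on the arrays of both days, among 348 rat miRNA probes at day 2 and 677 at day 14. The list was chosen by earlier differences between infarcted and sham hearts on these same arrays, so the differences below are descriptions, with no test. A miRNA is a short RNA that pairs with messenger RNAs, mainly through a stretch near its 5′ end called the seed, and lowers their translation or stability. miRNAs of a cluster lie close together and can be cut from 1 primary transcript, but each hairpin is processed and each mature arm is degraded separately. In rodents miR-322 (miR-424 in human) and miR-503 belong to the extended miR-15 group, known for targeting cell-cycle genes such as cyclins and Cdc25a, and in mouse heart the miR-15 group is known for its part in the arrest of cardiomyocyte division after birth.

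Hearts came from male Wistar rats, whose ages the labels do not give. The sham groups had the chest and pericardium opened, and the myocardial infarction (MI) groups had the same operation with ligation of the left anterior descending coronary artery (LAD). Hearts were collected 2 or 14 days after surgery, and each of the 4 groups is 1 array of RNA pooled from 3 rats. No transgene or drug is named for any group. The arrays were miRCURY LNA slides, read in 1 colour with the dye Hy3, from 1 µg of RNA at day 2 and 500 ng on a later array generation at day 14, so MI was set against sham within a day only. The labels do not say which region of the heart was taken.

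The sequences show which of the miRNAs share a seed and which do not. Each is the RefSeq mature form on rat build GRCr8, with the seed (bases 2 to 8) in capitals; an array name with no arm was matched to the 5p form.
miR-322: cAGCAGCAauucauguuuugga
miR-503: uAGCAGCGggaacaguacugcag
miR-542-3p: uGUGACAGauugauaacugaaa
miR-542-5p: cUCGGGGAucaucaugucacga
miR-351: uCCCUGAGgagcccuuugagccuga

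All 4 matched an entry on the minus strand, miR-322 at chrX:137726198-137726219, miR-503 at chrX:137725899-137725921, miR-542-5p at chrX:137722223-137722244 and miR-542-3p at chrX:137722185-137722206. Along the transcribed strand the hairpins run mir-322, mir-503, mir-351, mir-542, mir-450b and mir-450a, 6 hairpins over 5309 bases (chrX:137720933-137726241). The mir-503 hairpin begins 220 bases after mir-322 ends, mir-351 follows after 659 bases, and the longest gap, 2861 bases, lies before mir-542. miR-503 shares 6 of its 7 seed bases with miR-322, and the mature forms share 11 of 22 positions when aligned without gaps from the 5′ end. The seeds of miR-542-3p and miR-542-5p occur in no other of the 724 rat mature miRNAs of the table. miR-542-3p is known in human cells for targeting survivin, an inhibitor of cell death.

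miR-322 shares its whole seed with miR-15b, miR-16, miR-195 and miR-497, which come from other chromosomes and are shown because their values are set beside it below.
miR-15b: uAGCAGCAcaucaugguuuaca
miR-16: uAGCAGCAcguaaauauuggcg
miR-195: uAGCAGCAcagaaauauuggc
miR-497: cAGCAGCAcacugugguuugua

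Outside the seed these forms differ, and miR-322 shares 16 of 22 positions with miR-15b and 15 with miR-497. miR-16 and miR-195 differ least, sharing 19 of 21 positions, and whether their probes read each other was not tested.

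Each probe is printed as 4 spots. Detection of a spot required a foreground more than 2 background SDs above the local background, and detection of a probe required this in 50% of its spots or more. Differences are given as MI minus sham of the mean log2 normalized intensity, with a standard error (SE) over the spots that leaves out variation between rats and between arrays. With 1 array a group, slide and group cannot be told apart, and a difference of at least 2-fold (1 on the log2 scale) serves as the call. The day 2 sham array was the noisiest, with a median SD over the spots of a detected rat probe of 0.64 log2, against 0.08 to 0.15 on the other 3, and it had the highest local background (medians on the others were 94 to 131 intensity units). Its file header gives the scanned image a mouse prefix, although its labels say rat, and no day 2 value can be had without it. None of the 4 miRNAs was saturated on any array.

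At day 2 none of the 4 miRNAs differed 2-fold between MI and sham. miR-322 and miR-503 were slightly lower in MI, and both arms of miR-542 were slightly higher with errors larger than the difference. Of 187 rat probes with a fold, 4.28% were called higher in MI and 1.07% lower. The median difference of the 4 was 0.08, against 0.09 over all rat probes with a fold. Both depend on spot position 4, described below. Without it 1.05% of 191 rat probes were called higher and 1.05% lower, and the median of the 4 was -0.25. The median of rat probes detected on both arrays then went from 0.09 to -0.31.

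miR-322 had foreground intensities of 8493, 6505, 8442 and 8362 in day 2 sham and of 5469.5, 4982.5, 6758 and 6958 in day 2 MI. These are far above the local background, a median of 336.5 in sham and 151 in MI. The raw intensities of MI lay below those of sham for 4 of 4 pairs with the same spot position, and the brighter MI spots overlapped with the dimmest sham spot. After normalization, which removes the overall brightness of a slide, the level was 12.82 in sham and 12.71 in MI, a difference of -0.11 (SE 0.15), and the spots overlapped.

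miR-503 had foreground intensities of 3589, 3568, 3615.5 and 3668.5 in day 2 sham and of 2748, 2784, 3001 and 2591 in day 2 MI. All 4 MI spots lay below all 4 sham spots, and they did so after normalization too. The normalized difference was -0.18 (SE 0.05), or 1.13-fold lower in MI. Such a separation with MI lower was found for 12.3% of rat probes with a fold at day 2, and for 1 of the 4 miRNAs.

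miR-542-3p had foreground intensities of 2076, 2366, 1946.5 and 527 in day 2 sham and of 1161, 1419.5, 1389.5 and 1194 in day 2 MI. Sham spot 4 stood apart, below its own local background of 664, and was not detected. The normalized difference was 0.36 (SE 0.81), but over the other 3 spot positions it was -0.41, so 1 spot set gives the direction. miR-542-5p, cut from the other arm of the hairpin, had sham spots of 735, 682, 580 and 290.5 and MI spots of 460, 409, 393 and 334. Its sham spot 4 was likewise below a local background of 698, and its difference of 0.27 (SE 0.66) became -0.34 without spot position 4. On that array the whole spot set 4 deviated by a median of -0.99 log2 from the probe medians and had the highest local background of the 4 sets. Spot 4 of miR-322 and of miR-503 was not dim there. Median values over spots gave -0.34 for miR-542-3p and -0.28 for miR-542-5p.

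**Figure D1:**
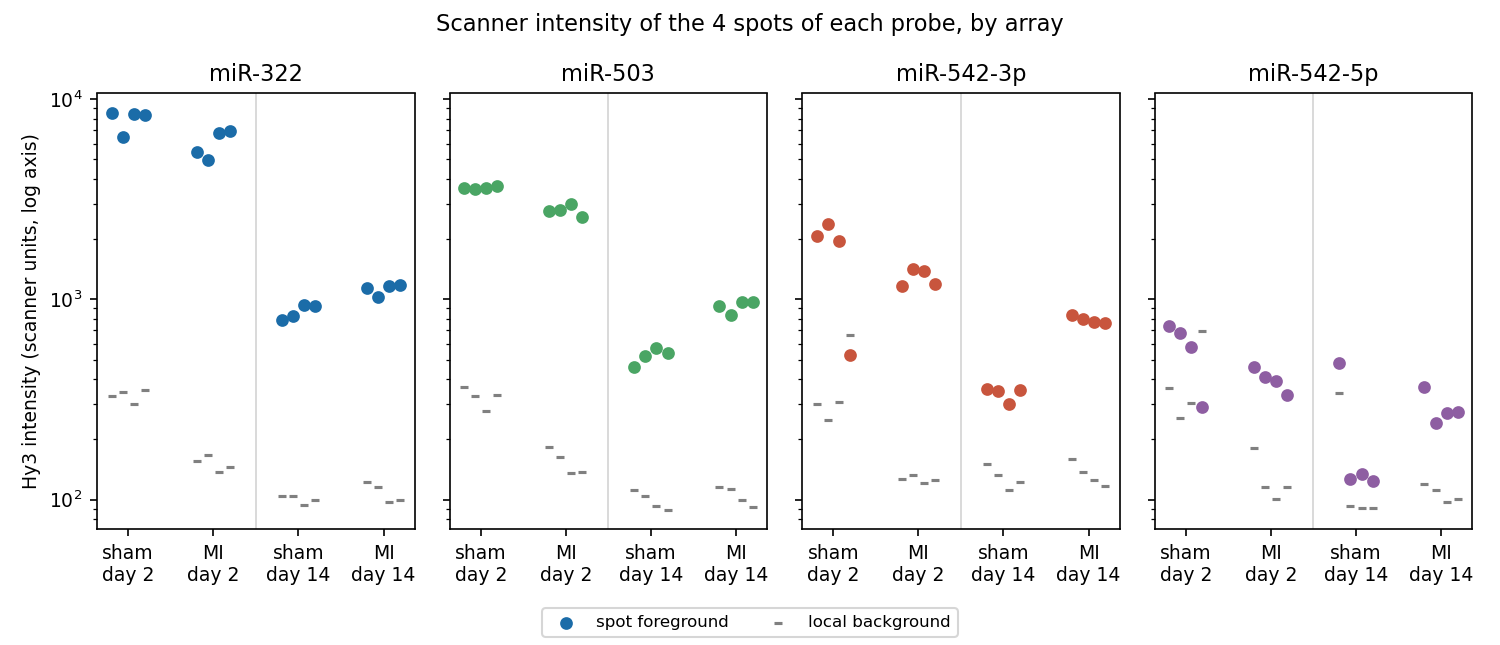
Hy3 intensity in scanner units on a log axis, for each of the 4 spots of the probes of miR-322, miR-503, miR-542-3p and miR-542-5p on the 4 arrays; points are spot foreground and dashes local background. In these intensities before normalization, the day 14 spots of miR-322, miR-503 and miR-542-3p lie higher in MI than in sham without overlap. Those of miR-322 overlap after normalization. Spot 4 of both miR-542 arms in day 2 sham falls below its background.

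At day 14 the miRNAs were spread out. miR-542-3p was 2.02-fold higher in MI and miR-503 1.31-fold higher, miR-322 differed by less than its error, and miR-542-5p was detected in MI only. Thus 1 of 4 was past 2-fold, on arrays where 11.7% of 230 rat probes were called higher and 3.48% lower. The median of the 4, with the bound of miR-542-5p among them, was 0.56, against 0.26 over all rat probes with a fold. In bulk tissue, more cells that hold a miRNA and more of it per cell cannot be told apart.

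miR-542-3p had foreground intensities of 355, 347, 301 and 354 in day 14 sham and of 839, 801, 772.5 and 760 in day 14 MI. The spots of each array lay close together, and the dimmest MI spot was brighter than the brightest sham spot. The normalized level was 8.38 in sham and 9.39 in MI, a difference of 1.01 (SE 0.05), and by spot position it ranged from 0.87 to 1.10. It was the last of the 27 rat miRNAs called higher, just inside the 2-fold threshold, with miR-33 next above at 1.01 and miR-99b first outside at 0.99. The difference was above 0 in all 16 alternatives tried and past 2-fold in 11 of them, among which the 2 other detection thresholds leave the value as it was. The 5 below 2-fold were arrays centred on their medians (0.51), the authors' deposited table (0.57), cyclic loess (0.79), and leaving out spot position 1 or 3 (0.99 each).

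miR-503 had foreground intensities of 460.5, 522.5, 569 and 540 in day 14 sham and of 925, 837, 970.5 and 974.5 in day 14 MI. The MI spots again lay above every sham spot, also after normalization. The level was 9.26 in sham and 9.65 in MI, a difference of 0.39 (SE 0.10), which ranked 95 of 230. Spots did not overlap, with MI higher, for 2 of the 4 miRNAs, and for 45.7% of rat probes with a fold, so such a separation was common on these arrays. The difference of miR-503 was above 0 in 16 of 16 alternatives but shrank to 0.07 with centred arrays and to 0.02 in the authors' deposited table.

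miR-322 had foreground intensities of 788, 826, 937 and 931 in day 14 sham and of 1133.5, 1030, 1172 and 1182 in day 14 MI. The raw MI spots were all brighter than the sham spots, and without normalization between arrays the difference was 0.35. In that setting the median of rat probes detected on both arrays was 0.46. Spike-in probes were brighter in MI by a median of 0.12, and shifting by them left miR-322 at 0.22. After normalization the levels were 9.99 and 9.94, a difference of -0.05 (SE 0.08), with overlapping spots. It ranked 168 of 230, with miR-377* (-0.04) next above it and miR-465 (-0.06) next below. Its direction depends on the scaling, with 3 of 16 alternatives above 0 and 13 below, from -0.55 in the authors' deposited table to 0.35.

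miR-542-5p was dim at day 14. Its sham spots read 482, 126, 134 and 124, and none was detected, since the first lay over a local background of 339. Its MI spots read 363, 241, 270.5 and 273, and 3 of 4 were detected. Set against the sham probe's own mean, the level in MI was at least 1.66-fold higher, a bound of 0.73 (SE 0.23), and the first sham spot lay inside the range of the MI spots after normalization. Before normalization that spot was brighter than every MI spot. The bound fell to 0 with centred arrays and to 0.45 when detection required 3 background SDs. It rose past 2-fold to 1.79 with local background subtracted and to 1.46 in the authors' deposited table.

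**Figure D2:**
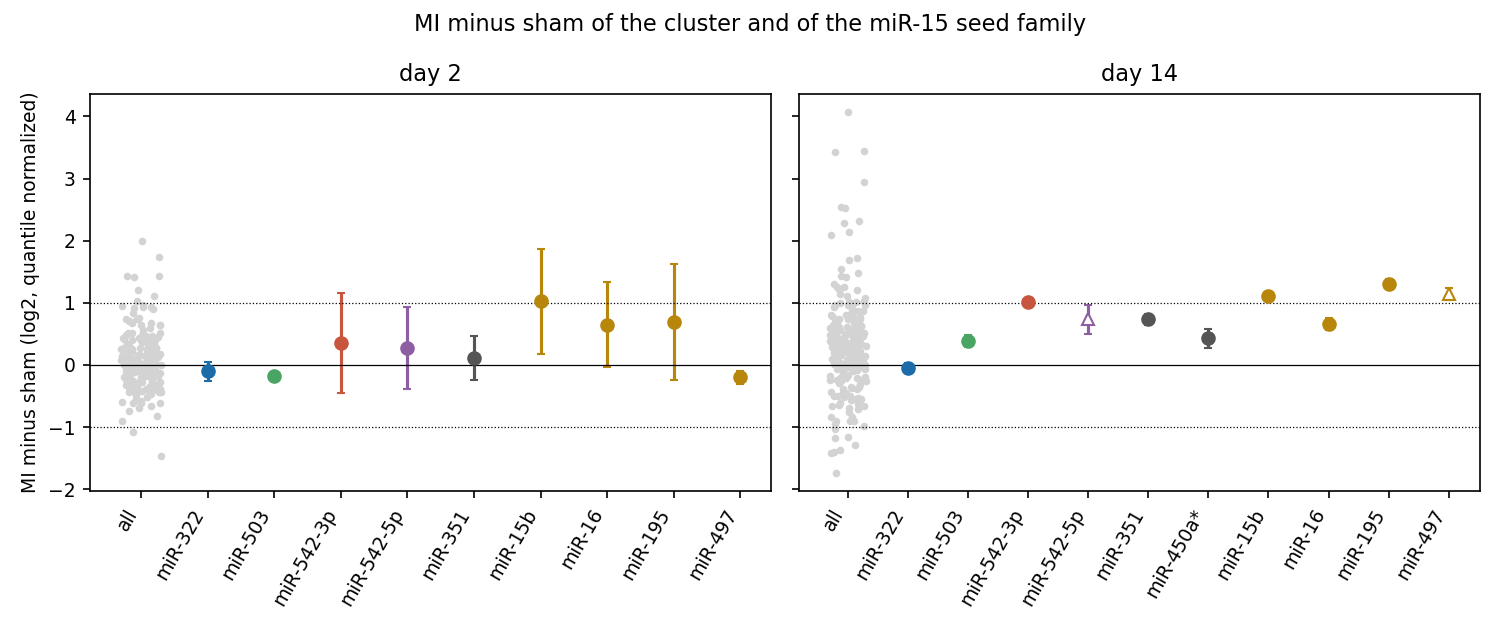
MI minus sham (log2, quantile normalized) at day 2 and day 14; grey points are all rat probes with a fold, coloured points the cluster and the miR-15 seed family with SE over 4 spots, open triangles are bounds, and dotted lines mark 2-fold. miR-542-3p sits at 1.01 and miR-322 at -0.05 at day 14, while at day 2 all 4 cluster miRNAs lie within 2-fold.

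The hairpins of the cluster did not show 1 common difference at day 14. The difference of miR-542-3p exceeded that of miR-322 by 1.06 (SE 0.10 over spots) and that of miR-503 by 0.63 (SE 0.11). The difference of miR-503 exceeded that of miR-322 by 0.44 (SE 0.13). The order miR-322, miR-503, miR-542-3p, from the lowest difference to the highest, was found in 16 of 16 alternatives at day 14, with miR-542-3p above miR-322 by 0.87 to 1.41. Not all of these could change the order: the 2 other detection thresholds leave the values as they were, and no normalization, centred arrays and the spike-in shift only move a whole array, so that the gap is 0.87 in all 3. At day 2 that order was not found in the values as reported and was found in 1 of 16 alternatives, and miR-542-3p and miR-322 differed by 0.46 (SE 0.82).

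Other probes for the cluster fill in the picture. miR-351 lies between mir-503 and mir-542 and has the seed of miR-125a-5p and miR-125b-5p. At day 14 its level was 8.63 in sham and 9.37 in MI, a difference of 0.73 (SE 0.09) or 1.66-fold, and the spots did not overlap. Over the alternatives that difference stayed above 0 but ran from 0.26 in the authors' deposited table and 0.28 with centred arrays to 1.02, past 2-fold, with the mean of pixels. Its difference at day 2 was 0.11 (SE 0.35), which became -0.23 without spot position 4. miR-450a*, from the hairpin at the far end, had 8.17 and 8.60 at day 14, a difference of 0.43 (SE 0.16) with overlapping spots, and from -0.22 with centred arrays to 0.68 with local background subtracted. The probes of miR-322* and miR-450a were detected on neither array of either day, and those of miR-503* and miR-351*, present at day 14 only, on neither array. Of the 6 other rat probes of the cluster at day 14, 2 therefore gave a difference, both above 0 and both within 2-fold.

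**Figure D3:**
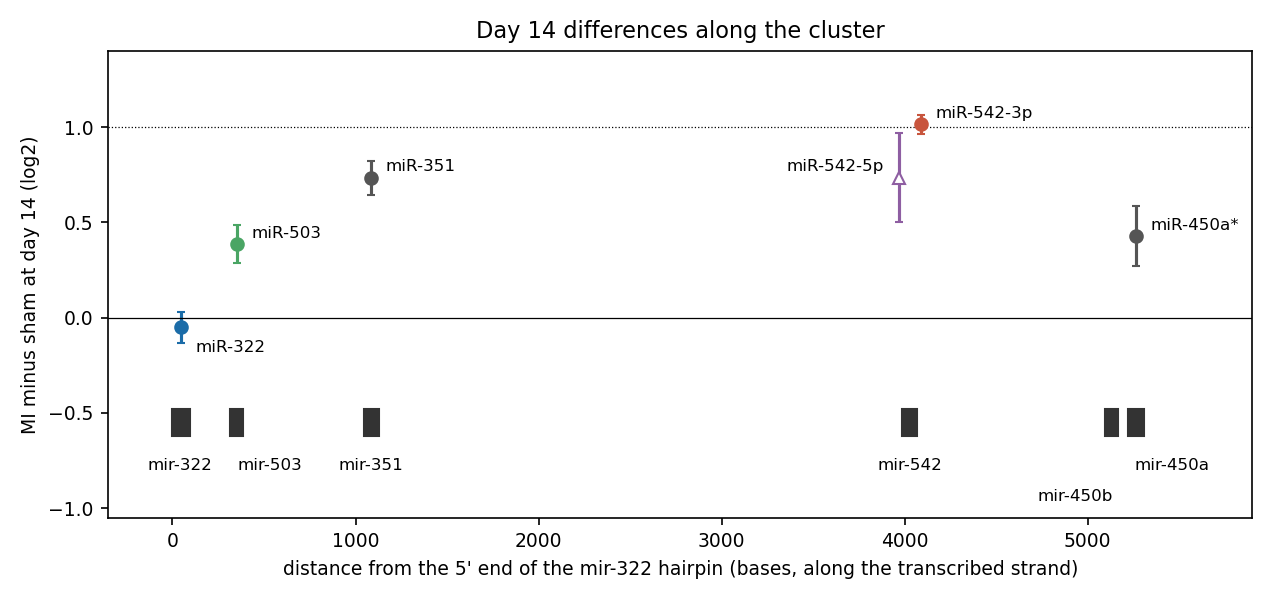
MI minus sham at day 14 (log2) against the distance in bases from the 5′ end of the mir-322 hairpin along the transcribed strand; points carry the SE over 4 spots, the open triangle is a bound, black boxes are hairpins, the dotted line marks 2-fold, and the points of the miR-542 arms are moved apart sideways to be seen. From mir-322 to mir-542 the differences run -0.05, 0.39, 0.73 and, for miR-542-3p, 1.01. The sham levels of the same probes fall in that order, 9.99, 9.26, 8.63 and 8.38. Whether the differences go with position or with brightness was not tested. The bound of miR-542-5p, the other arm of that hairpin, is 0.73, level with miR-351. miR-450a* lies at 0.43.

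Human and mouse probes on the slides carry the names of some of these hairpins. The probe for hsa-miR-424, the human counterpart of miR-322, differed by -0.23 (SE 0.13) at day 2 and by 0.01 (SE 0.12) at day 14, each within 1 SE of the value of the rat probe. The probe for hsa-miR-450a was detected in all 4 spots of every array, while the rat probe for miR-450a was detected on none, and whether the human probe reads the rat miRNA was not tested. It differed by 0.17 (SE 0.07) at day 14. Its day 2 difference of -0.01 (SE 0.42) rests on sham spot 4, which read 1035 against 2771 to 3122 in the other 3. The probe for mmu-miR-503* was bright, with a median foreground at day 14 of 941.5 in sham and 957.75 in MI, and its normalized difference was -0.41 (SE 0.08) with no overlap of spots. The rat probe for miR-503* was detected on neither of those arrays, so the mouse probe and the rat probe for that arm differ, and whether the mouse probe reads miR-503* was not tested. The probe for mmu-miR-450a-2* was detected at day 14 in sham only, in 2 of 4 spots. It had a bound of -0.43 with overlapping spots. At day 2, under the name mmu-miR-450a-3p, it was detected on neither array. The probe for hsa-miR-503 and the human and mouse probes for miR-450b were detected on neither array of either day.

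The miRNAs with the seed of miR-322 went further than miR-322 itself at day 14. miR-195 differed by 1.31 (SE 0.08), miR-15b by 1.11 (SE 0.06) and miR-16 by 0.66 (SE 0.10). miR-497, detected in MI only, had a bound of 1.14 (SE 0.09). Thus 3 of 4 were past 2-fold, with a median of 1.12, beside -0.05 for miR-322. At day 2 the 4 had a median of 0.67, with 1 past 2-fold, miR-15b at 1.02 (SE 0.84), the last inside the threshold. miR-16 and miR-195 at 0.65 and 0.69 had errors larger than the difference. The day 2 sham spots spread widely, with SDs of 1.67 for miR-15b, 1.35 for miR-16 and 1.86 for miR-195. miR-497 was at -0.20 (SE 0.11) that day.

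Markers of cell types moved between the same pools. At day 14, 4 of 5 heart muscle miRNAs (miR-1, miR-133a, miR-133b, miR-208 and miR-499) were past 2-fold lower in MI, with a median of -1.37. Their normalized levels ran from 11.32 to 13.86 in sham and from 10.66 to 12.45 in MI. Of 5 miRNAs of fibroblasts and smooth muscle, 3 were past 2-fold higher (miR-199a-5p, miR-199a-3p and miR-214), with a list median of 2.10 and levels from 9.59 to 13.70 in sham and 9.68 to 14.51 in MI. The rest of that list, miR-143 at 0.81 and miR-145 at -0.15, stayed within 2-fold. Of 4 leukocyte miRNAs, 3 were past 2-fold higher and miR-150 was lower, by -1.74. The endothelial pair miR-126 and miR-126* had a median of -0.34 and the erythroid pair miR-451 and miR-144 one of 0.11.

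At day 2 the fibroblast and smooth muscle list had a median of -0.02 with 0 of 4 past 2-fold, and the leukocyte list one of 1.35, all 4 above 0 and 2 past 2-fold. Errors were small for miR-223 (1.99, SE 0.12) and miR-142-5p (0.83, SE 0.09). They were large for miR-142-3p (1.74, SE 0.88) and miR-150 (0.97, SE 0.77). Of the 5 heart muscle miRNAs 2 gave a fold, with a median of 0.42, since the others were saturated. Both of these, miR-133b at 0.33 (SE 0.60) and miR-499 at 0.51 (SE 0.97), had errors larger than the difference. All these day 2 values include the dim spot set 4 of the sham array. Every marker was detected on at least 1 array of each day. Levels of different probes are not on 1 scale and were not summed. The part of these cell types in the differences of the cluster was not tested.

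The authors' deposited table of log2 values spreads the same arrays over a wider scale than the normalized levels reported here. It ordered miR-322, miR-503 and miR-542-3p in the same way at day 14. At day 14 it lists miR-542-3p at 8.32 in sham and 8.89 in MI, miR-503 at 9.20 and 9.22, and miR-322 at 10.08 and 9.54. It lists miR-542-5p, not detected in sham, at 5.73 and 7.19, the only one of the 4 past 2-fold there at day 14. Of 226 rat probes at day 14, 17.3% were past 2-fold higher in the authors' deposited table, as were 12.6% of 198 at day 2. At day 2 the authors' deposited table lists miR-542-3p at 8.67 in sham and 10.12 in MI, the only one of the 4 past 2-fold there, and this is the probe whose sham spot 4 was not detected. It lists miR-322 at 12.79 and 12.53 and miR-503 at 11.72 and 11.29, both lower in MI.

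**Figure D4:**
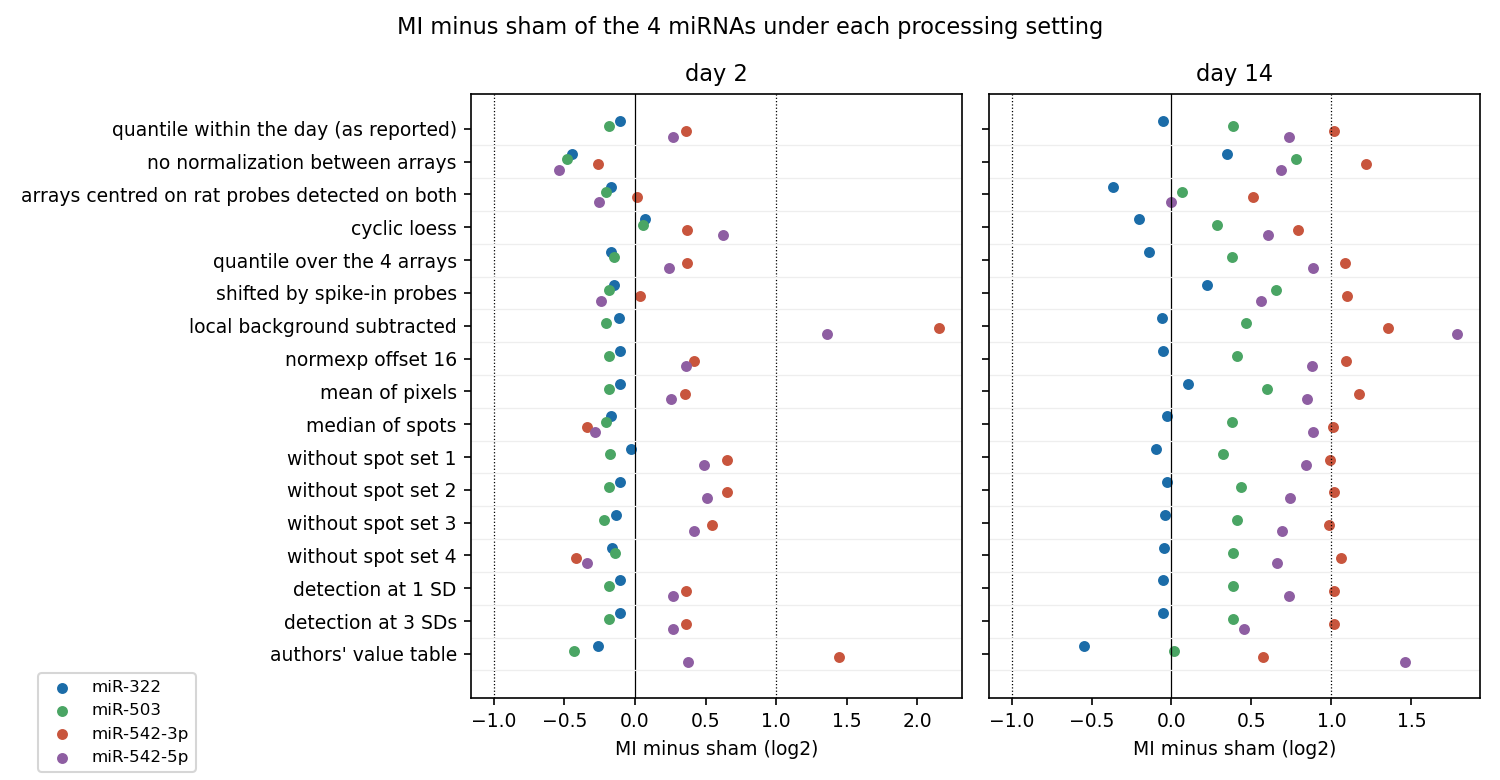
MI minus sham (log2) of the 4 miRNAs at day 2 and day 14 under the processing as reported and 16 alternatives, 1 line each; dotted lines mark 2-fold. At day 14 miR-322, miR-503 and miR-542-3p keep their order on every line, while at day 2 the points of both miR-542 arms fall on either side of 0.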

How the data were processed

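The authors deposited scanner intensity per spot and per local background, quantified with Mapix 4.5.0 per the file headers, and a table of log2 values. How that table was made is not given in the sources here. Array version 11.0 (miRBase 12.0 names) served day 2 and generation 6 (miRBase 16.0 names) served day 14, per the file headers. Sample titles gave the groups, because every sample carries the same treatment protocol text.

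The normexp method removed the median local background from the median foreground (limma 3.58.1, R 4.3.3, offset 50, fitted on all spots). Quantile normalization joined the sham and MI arrays of each day, without control spots, and the 4 log2 values of a probe were averaged. A fold was taken for rat probes detected on at least 1 array. Where only 1 array detected the probe, the fold is a bound: the dim side was raised to the lowest mean of any probe detected on that array if its own mean was lower. Bounds below 1-fold became 0 in log2. Spots at the scanner's limit counted as saturated. A single array per group allows no test. The deposited intensity and log2 values do not tell how far rats of a group vary. The calculation was first tested on simulated arrays with known changes. Both arrays of a simulated pair were built from the MI array of the day and its background. They therefore do not hold the noise of the day 2 sham array, and dim probes were not scored.

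Set against the normalized levels reported here, over detected rat probes, the deposited log2 table had slopes of 1.25 and 1.36 at day 2 and 1.17 and 1.23 at day 14. Its column medians were 6.36 at day 2 and 4.70 at day 14. The sham and MI columns of a day have the same median. How this was reached and how background was corrected stay unknown. The direction of the table is set, as each column is 1 array. The deposited table served as an alternative.

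The members, lists, rule for named miRNAs and alternatives were chosen with earlier results of these data known. Named are the 4 members, other probes of the cluster, miRNAs with a member's seed, the nearest ranked probes and those nearest the 2-fold threshold. Sequences are RefSeq's on GRCr8.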

Additional observations from a re-analysis of the deposited data

Results flagged for a closer look

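miR-503 differed in opposite directions on the 2 days. All 4 MI spots were below all 4 sham spots at day 2 (MI minus sham -0.18) and above them at day 14 (0.39). Such a separation was found for 12.3% of rat probes with a fold at day 2, MI lower. At day 14 it was found for 45.7%, MI higher. The difference between the days was not tested. Array generation and RNA amount changed between the days, and under cyclic loess the day 2 value was 0.05. Without spot position 4 the day 2 value was -0.14, where the median of rat probes detected on both arrays was -0.31. The day 14 value was 0.07 with centred arrays and 0.02 in the authors' deposited table.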

How the results depend on the processing

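Over 16 alternatives, the count of the 4 miRNAs past 2-fold at day 2, 0 as reported, became 2 with local background subtracted and 1 in the authors' deposited table. At day 14 the count of 1 became 0 with cyclic loess, 0 with centred arrays and 2 with local background subtracted, and ranged from 0 to 1 when 1 spot set was left out (0 without set 1 and without set 3). The day 14 median of 0.56 became 0.034 with centred arrays, 0.91 with local background subtracted and 0.29 in the authors' deposited table. Subtraction also raised the share of rat probes called higher to 25.7% on both days. Normalization moved the median of rat probes detected on both day 14 arrays, from 0.24 as reported to -0.25 with centred arrays and 0.46 with none. The causes were not tested. No paired analysis was possible because each group has 1 array. Signal over background limits miR-542-5p on both days. Sham spot set 4 limits both miR-542 arms and the shares of rat probes called at day 2.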
